A study of Mus musculus with 6 samples.

Results

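The 10 genes Dusp1, Dusp2, Dusp4, Dusp5, Dusp6, Spry1, Spry2, Spred1, Ier2 and Ier3 were examined, all of which respond to or restrain the ERK arm of mitogen-activated protein kinase (MAPK) signaling. They were chosen by symbol, with earlier results of these data known, and each matched 1 of the 23284 genes in the files. RNA had been sequenced from C1498 cells, a murine acute myeloid leukemia (AML) line, which had been sorted on day 21 after AML cell transfer from bone marrow (BM), 3 mice being treated with cytarabine and 3 serving as controls. The hosts were wild-type C57BL/6J mice, female and 8 to 10 weeks old by the general statement of the methods. Cytarabine is a nucleoside analog that blocks DNA synthesis. The control mice are called PBS-treated in some labels and untreated in others. All 6 mice carried the same transplanted cells, a single clone of C1498 transduced with a GFP retrovirus, and the sort took GFP-positive, CD49b-positive cells, so both groups hold cells grown in a host, and no cells from before transfer are included. There was 1 library per mouse, and the libraries are called cytarabine 1, 2 and 3 and control 1, 2 and 3.

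ERK is switched on by the Ras-Raf-MEK cascade and phosphorylates factors that start the transcription of immediate-early genes within minutes. Several of the genes it induces then act back on the cascade. The dual-specificity phosphatases (DUSPs) remove the activating phosphates from MAPKs: DUSP6 is cytoplasmic and prefers ERK, DUSP2, DUSP4 and DUSP5 act in the nucleus, and DUSP1 acts in the nucleus on JNK and p38 as well as ERK. Sprouty and Spred proteins act higher up, between receptor, Ras and Raf. Ier2 and Ier3 are immediate-early genes, and IER3 is also known for its part in cell survival. In leukemia cells with an active Ras pathway, DUSP6 and SPRY messages are widely read as a gauge of ERK output.

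Among these genes, the clearest differences were in Dusp4 and Dusp6. The treated and control values of both did not overlap, and the group means were higher with cytarabine by 1.35 times for Dusp4 and 1.27 times for Dusp6. The values of the other 8 genes overlapped between the groups. No gene passed an adjusted p of 0.05 in limma, here or in the whole table, where 2038 of the 11703 genes tested had an unadjusted p under 0.05, so the differences below are given as values with their errors. The replicates are separate mice.

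Expression was given as FPKM, a fragment number scaled to the length of the transcript and to the size of the library, so levels can be compared between genes. Depth is not stored in FPKM. From the steps between low values of single-transcript genes, totals of 11460000 to 18780000 reads per library were inferred, at which 3 reads on a transcript of 2000 bases equal 0.0799 to 0.131 FPKM. Precision at counting level was thus high for Dusp6, with some 2460 reads or more in every library, and low for Spry2 in control 3, with about 3 reads. Dusp5 in that library had about 5 reads, and Ier3 in cytarabine 1 about 6. These read numbers rest on annotated transcript lengths, and the precision they give covers counting error only.

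Libraries stood apart in ways that crossed the groups. RNA of colon epithelium, which the sort should not contain, reached a summed 5882, 6199 and 2758 FPKM over 19 listed genes in cytarabine 2, cytarabine 3 and control 1. It was at 446, 38.96 and 31.37 FPKM in cytarabine 1, control 2 and control 3. Each comparison was therefore also made within the 3 libraries with more and within the 3 with less of this RNA. On both sides the treated libraries held more of it than the controls, so the division does not separate it from treatment. The 10 neutrophil genes found summed to 248.4 to 1482 FPKM in treated and to 1487 to 2097 FPKM in control mice, and 13 heart genes reached 3065 FPKM in control 1. Macrophage genes were highest in control 2, at 154.8 FPKM over 7 genes. The most abundant gene of each list in any library was Zg16 for colon (2210 FPKM), Acta2 for smooth muscle (391 FPKM), Nppa for heart (1480 FPKM), S100a9 for neutrophils (809 FPKM) and C1qa for macrophages (47.5 FPKM). In further lists it was Klrd1 for NK cells (139 FPKM), Cd79a for B cells (5.88 FPKM), Hba-a1 for erythroid cells (95.3 FPKM) and Pecam1 for endothelium (23.3 FPKM). Of the markers of the line, the pan-leukocyte gene Ptprc lay between 284 and 386 FPKM and Itga2, which encodes CD49b, between 7.79 and 13.3 FPKM. Of the myeloid and progenitor genes, Mpo was at 71.1 FPKM in cytarabine 1 and at 2.33 to 12.3 FPKM in the other libraries. Cd34 lay between 0.41 and 7.72 FPKM and Cebpa between 0.462 and 2.18 FPKM, and Kit and Flt3 were at most at 1.59 and 0.24 FPKM. Of the T cell list, Cd3g of the T cell receptor complex was the most abundant, between 449 and 652 FPKM. Cd3e, Lck and Zap70 were at 66.4 FPKM or more and Cd3d at 3.61 to 9.99 FPKM. Cd247, Cd4, Cd5, Cd8a and Cd8b1 were at most at 0.765, 0.893, 0.0848, 0.382 and 0.348 FPKM. In bulk samples, fewer cells of a type and less RNA per cell cannot be told apart.

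The members spanned more than 2 orders of magnitude in level. Dusp6 led at a mean of 111 FPKM over the 6 libraries, at percentile 96.2 of all genes, and its lowest library lay above the highest of Ier2, at a mean of 66.3 FPKM. Ier2, Dusp2 at 43.3 FPKM, Dusp4 at 35.7 FPKM and Spred1 at 32.8 FPKM followed, each overlapping in range with the next. Dusp1, at 10.5 FPKM, stood apart from those above and from Spry1 below. Spry1 at 3.68, Ier3 at 3.53, Spry2 at 1.48 and Dusp5 at 0.871 FPKM overlapped with their neighbours in this order. The order by mean thus separates Dusp6, a middle group of 4 genes, Dusp1 and a low group of 4 genes.

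**Figure D1:**
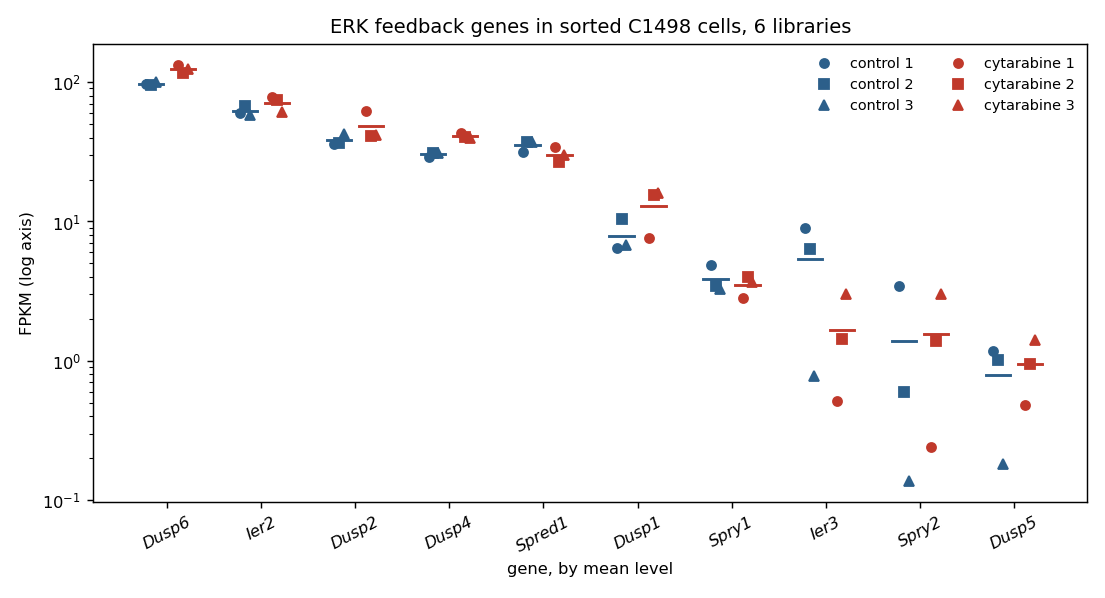
FPKM of the 10 genes in each of the 6 libraries, on a log axis, with genes ordered by mean level. Points are libraries, marker shapes give the replicate number, and bars are group means. Dusp4 and Dusp6 show cytarabine points all above the control points, and Ier3, Spry2 and Dusp5 spread over about 1 order of magnitude or more between libraries of 1 group.

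Dusp4 encodes a nuclear phosphatase of ERK and JNK and lies on chromosome 8 from 34807297 to 34819894 of GRCm38. It read 43.0, 40.5 and 39.5 FPKM in the cytarabine libraries (always in the order 1, 2, 3) and 29.2, 30.9 and 30.9 FPKM in the control libraries. The groups did not overlap, and the spread inside each was small, with 41.0 ± 1.81 FPKM (SD, n = 3) in treated and 30.3 ± 0.984 FPKM (SD, n = 3) in control mice. The log2 fold change on log2(FPKM + 1) was 0.42 (95% confidence interval 0.27 to 0.57; adjusted p = 0.131 from limma). Within the 3 libraries with little colon RNA the difference was 0.46, and within the 3 with much of it 0.44, each with 1 library on one side. Dusp4 was thus about equally higher on both sides of that division, which does not balance colon RNA between the groups.

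Dusp6 encodes the cytoplasmic ERK phosphatase and lies on chromosome 10 from 99263231 to 99267489. It measured 133, 116 and 124 FPKM after cytarabine and 97.2, 95.5 and 99.4 FPKM without it. Again the lowest treated library exceeded the highest control, with 124 ± 8.64 FPKM (SD, n = 3) against 97.4 ± 1.97 FPKM (SD, n = 3). The log2 fold change was 0.34 (95% confidence interval 0.18 to 0.51; adjusted p = 0.147 from limma). The differences within the colon division were 0.44 with little and 0.30 with much of that RNA. The ratio of Dusp4 to Dusp6, chosen after the values were seen and which no scaling of libraries can alter, was 0.331 ± 0.0164 (SD, n = 3) in treated and 0.312 ± 0.0118 (SD, n = 3) in control mice. Both genes therefore differed between the groups by nearly the same factor.

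Dusp4 and Dusp6 had the only unadjusted p values under 0.05 among the 9 members tested, at 5.43e-04 and 0.00238 from limma. Both were higher, against 7.6% of all genes tested that were called higher by this rule, and no member was called lower, against 9.81%. The groups were apart and higher for the same 2 genes, where 10.9% of all genes were, and apart and lower for none, where 12.9% were. The share of members called higher lies above the background but rests on 2 genes. The members were chosen with earlier results of these data known, so this share is a description only. The median log2 fold change of the tested members was 0.194, and that of all genes tested was -0.002. Genes of the neutrophil and NK cell lists moved with the groups beside Dusp4 and Dusp6, as did single genes of other marker lists. Cd3d, at 7.66 to 9.99 against 3.61 to 4.47 FPKM, was higher in treated mice without overlap. So were Cd79b, Vcam1, Cebpa and Kit, none above 3.83 FPKM, while Pax5, at most at 0.692 FPKM, was lower without overlap. Kit and Pax5 were not tested. Apart from Itga2, the other genes of their lists overlapped. Of 10 tested neutrophil genes, 7 were lower with cytarabine at an unadjusted p under 0.05 in limma. Cytarabine 1, however, had a neutrophil sum of 1482 FPKM, against 1487 FPKM in control 1, and S100a8 and Camp overlapped between the groups. Within the libraries with little colon RNA, differences ran from -2.36 for Retnlg to 0.33 for Camp. Of 4 tested NK list genes, 3 were higher by that rule. The NK sums over 8 genes were 125.1 to 157.1 FPKM in treated and 91.14 to 98.65 FPKM in control mice. Of the 8 NK genes, Klrd1, Klrb1c, Gzma, Prf1 and Eomes were higher in treated mice without overlap, Eomes at most at 0.551 FPKM, while Ncr1 and Tbx21, at most at 0.384 and 0.195 FPKM, and Klre1 overlapped. Itga2, which encodes the sort marker CD49b, was lower with cytarabine without overlap, at 7.79 to 8.11 against 10.6 to 13.3 FPKM (log2 fold change -0.57, adjusted p = 0.136 from limma). Klrd1 was at 86.6 to 139 FPKM over all libraries. Whether the NK list genes came from the sorted line or from other cells was not tested. The part of other cells and of the sort in the Dusp4 and Dusp6 levels was not tested either. Both calls held at an unadjusted p under 0.05 in each of the 17 alternative fits, including those that left out any 1 library, with adjusted p values from limma between 0.054 and 1.0 for Dusp4 and between 0.0612 and 1.0 for Dusp6.

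**Figure D2:**
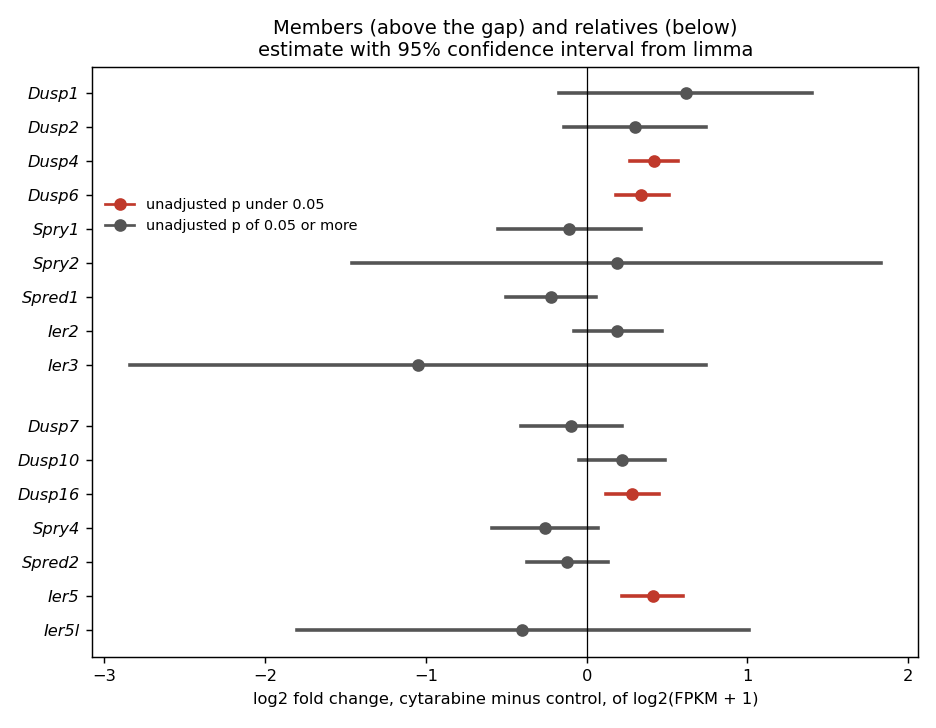
Log2 fold change of log2(FPKM + 1), cytarabine minus control, with its 95% confidence interval from limma, for the 9 members tested and, below the gap, 7 relatives. Red marks an unadjusted p under 0.05. Dusp4, Dusp6, Dusp16 and Ier5 have narrow intervals above 0, while those of Spry2 and Ier3 are wide and span 0.

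Dusp2, a nuclear phosphatase induced in activated lymphocytes, lies on chromosome 2 from 127336159 to 127338376. It stood at 62.0, 41.2 and 41.4 FPKM in treated mice and 35.9, 36.6 and 42.5 FPKM in control mice. Cytarabine 1 stood well above all other libraries, and control 3 lay above the remaining cytarabine libraries. The log2 fold change was 0.30 (95% confidence interval -0.14 to 0.74; adjusted p = 0.392 from limma), and without cytarabine 1 it was 0.11. With the colon score as covariate it was 0.54, with an unadjusted p of 0.0198 in limma. With colon and heart scores it was 0.46, with an unadjusted p of 0.204 in limma. The differences within the libraries with little and with much colon RNA were 0.64 and 0.20.

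Dusp1 encodes the phosphatase with the broadest choice of MAPKs among these and is annotated on the minus strand of chromosome 17 from 26505590 to 26562128. It had values of 7.59, 15.6 and 15.9 FPKM in the treated and 6.45, 10.5 and 6.83 FPKM in the control libraries. The high libraries were cytarabine 2 and 3, and cytarabine 1 lay inside the control range. The log2 fold change was 0.62 (95% confidence interval -0.17 to 1.40; adjusted p = 0.356 from limma). Without cytarabine 1 it was 0.94, with an unadjusted p of 0.00754 and an adjusted p of 0.0718 from limma. The difference was 1.17 within the libraries with much colon RNA and -0.14 within those with little, and with the colon score as covariate it was 0.46 (unadjusted p = 0.307 in limma).

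Dusp5, a nuclear phosphatase of ERK on chromosome 19 from 53529109 to 53542431, had a mean of under 1 FPKM and was not tested. It gave 0.482, 0.945 and 1.42 FPKM in the cytarabine libraries, against 1.18, 1.02 and 0.183 FPKM in the control libraries, and the groups overlapped throughout. Its exons share 547 bases with the antisense gene AC137853.2, and how Cufflinks treated strand is not given in the sources used here, so reads of the 2 genes cannot be told apart.

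The 300-base windows around the RefSeq start sites (GRCm38.p6, 250 bases before to 50 after) were searched for 7 motifs on both strands. A window was found for 8 of the 10 genes, all but Dusp4 and Ier2. For Dusp6, Dusp1 and Dusp5 the 200 bases from 250 to 51 before the start are shown, with motif matches in capitals. Dusp6 and Dusp1 are the members of smallest p with a window, and Dusp5 was added, after its matches were seen, because it holds CArG boxes, the element bound by serum response factor (SRF).
Dusp6, chr10:99262981-99263180, plus strand: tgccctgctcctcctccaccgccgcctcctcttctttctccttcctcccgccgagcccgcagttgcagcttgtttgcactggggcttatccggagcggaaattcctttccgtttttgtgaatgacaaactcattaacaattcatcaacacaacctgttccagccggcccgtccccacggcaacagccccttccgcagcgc
Dusp1, chr17:26508523-26508722, minus strand: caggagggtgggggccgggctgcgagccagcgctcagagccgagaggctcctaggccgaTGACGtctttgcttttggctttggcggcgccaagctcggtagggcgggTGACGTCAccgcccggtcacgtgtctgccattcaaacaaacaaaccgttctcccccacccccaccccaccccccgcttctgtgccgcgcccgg
Dusp5, chr19:53528895-53529094, plus strand: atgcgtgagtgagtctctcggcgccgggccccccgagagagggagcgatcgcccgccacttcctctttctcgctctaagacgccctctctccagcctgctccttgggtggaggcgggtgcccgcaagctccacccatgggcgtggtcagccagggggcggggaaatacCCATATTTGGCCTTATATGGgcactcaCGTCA
The Dusp6 window matched none of the 7. The capitals in Dusp1 are a cyclic AMP response element, TGACGTCA, at positions -143 to -136 from the start, and a separate core of that element, TGACG, at -191 to -187. The full element was in 1.79% of the 32851 mouse windows and includes this core on either strand, which 20.8% held. The capitals in Dusp5 are 2 adjoining CArG boxes at -82 to -63 and a TGACG core on the minus strand at -55 to -51, where 1.63% of all windows held a CArG box. Among the other windows, Dusp2 held an EGR site (GCGGGGGCG; with GCGTGGGCG in 3.47% of windows) at -98 to -90 and a TGACG core downstream of its start. Ier3 held an NF-kB box at -92 to -83, as did 4.51% of windows, and Spry2 an ETS site (CCGGAA, in 14.9%) downstream of its start. No member window held the AP-1 site TGANTCA, which 7.81% did, and the windows of Spry1 and Spred1 matched nothing. A match is a run of letters and no evidence of binding.

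The messages also differed in AU-rich elements, which mark short-lived messages. In the 3' UTR of the annotated transcript with the longest coding sequence, ATTTA occurred 8.16 times per 1000 bases in Ier3, 6.88 times in Dusp2 and 5.8 times in Dusp1, against a median of 1.23 over 10235 tested genes. Spred1 (2.77), Spry2 (2.34), Spry1 (1.91) and Dusp4 (1.8) were nearer the median, Dusp5 (0.902) and Dusp6 (0.841) were under it, and Ier2 had none. The longer TATTTAT was in 6 of the 10 members and in 27.1% of the tested genes, and neither Dusp4 nor Dusp6 held it.

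Spry1 lies on chromosome 3 from 37639947 to 37644598 and measured 2.83, 3.99 and 3.69 FPKM after cytarabine and 4.84, 3.45 and 3.30 FPKM without it. Its log2 fold change was -0.11 (95% confidence interval -0.55 to 0.34; adjusted p = 0.753 from limma). Its exons share 710 bases with Gm42922 on the other strand, with the same limit as for Dusp5.

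Spry2, on the minus strand of chromosome 14 from 105891947 to 105896819, stood at 0.243, 1.40 and 3.01 FPKM in treated mice and 3.46, 0.599 and 0.138 FPKM in control mice. The highest library was 25.1 times the lowest, and both extremes were controls. Its log2 fold change of 0.19 had a 95% confidence interval from -1.46 to 1.83 (adjusted p = 0.885 from limma), so its direction was not settled at this spread.

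Both Sprouty genes were apart along the colon division, while their treatment groups overlapped. Spry2 was at 1.40 to 3.46 FPKM in the 3 libraries with much colon RNA and at 0.138 to 0.599 FPKM in the others, and Spry1 at 3.69 to 4.84 FPKM against 2.83 to 3.45 FPKM. Of all genes tested, 17.2% were higher on the side with much colon RNA without overlap. With the colon score as covariate the log2 fold change was -0.39 for Spry1 and -1.0 for Spry2, with unadjusted p values of 0.0313 and 0.0297 in limma.

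Spred1, which keeps Ras inactive together with neurofibromin, lies on chromosome 2 from 117121374 to 117182279. It had values of 34.0, 26.6 and 30.0 FPKM in the treated and 31.6, 37.0 and 37.3 FPKM in the control libraries. The groups overlapped through cytarabine 1 and control 1, and the log2 fold change was -0.22 (95% confidence interval -0.50 to 0.06; adjusted p = 0.357 from limma). Spred1 was lower in all 3 libraries with much colon RNA, at 26.6 to 31.6 FPKM, than in the others, at 34.0 to 37.3 FPKM, again without overlap, as were 17.2% of all genes tested. With colon and heart RNA as covariates its log2 fold change was 0.11.

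Ier2, a single-exon gene on the minus strand of chromosome 8 from 84661331 to 84662852, gave 78.1, 73.9 and 60.9 FPKM in the cytarabine libraries, against 60.3, 66.9 and 57.8 FPKM in the control libraries. Cytarabine 1 and 2 lay above the controls and cytarabine 3 inside their range. The log2 fold change was 0.19 (95% confidence interval -0.08 to 0.47; adjusted p = 0.388 from limma).

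Ier3 lies on chromosome 17 from 35821684 to 35822923 and measured 0.517, 1.43 and 3.04 FPKM after cytarabine and 9.04, 6.38 and 0.784 FPKM without it. Control 1 and 2 were the highest, while control 3 was lower than cytarabine 2 and 3. The log2 fold change was -1.05 (95% confidence interval -2.84 to 0.74; adjusted p = 0.443 from limma). It was -1.8 without control 3, with an unadjusted p of 0.0125 in limma, and -0.56 without control 1. The heart genes, at 3065 FPKM in control 1 and 635.6 FPKM in control 2, were also at 801.7 FPKM in cytarabine 3, and macrophage genes were highest in control 2. With the colon score as covariate the log2 fold change was -2.1 (unadjusted p = 0.0244 in limma), and with colon and heart scores it was -0.36 (unadjusted p = 0.672 in limma). The part of macrophage RNA in the level of Ier3 was not tested.

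**Figure D3:**
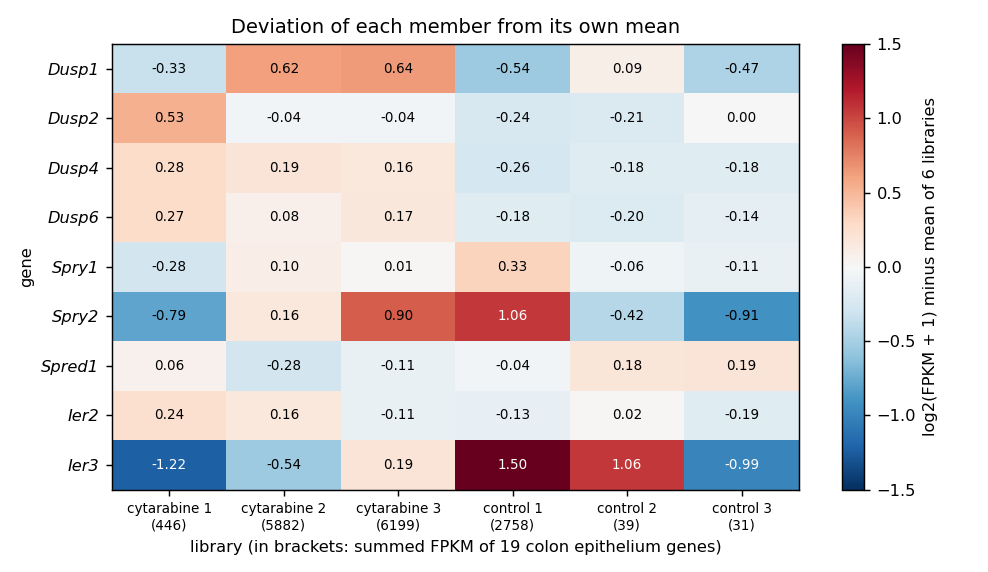
Deviation of log2(FPKM + 1) from the mean of the 6 libraries for the 9 members tested, with the summed FPKM of the 19 colon genes under each library. Dusp4 and Dusp6 are above their mean in all 3 cytarabine libraries and under it in all 3 controls, by at most 0.28, while Ier3 ranges from -1.22 to 1.5 and Spry2 from -0.91 to 1.06 across the groups.

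Among relatives of the members, Dusp10, Dusp16, Dusp18, Ier5 and Spred3 had groups apart and higher with cytarabine, as did 10.9% of all genes tested, and Dusp11 and Dusp19 had groups apart and lower, as did 12.9%. Of the other MAPK phosphatases, Dusp16, which acts on JNK and p38, stood at 9.95, 10.2 and 10.1 FPKM in treated mice and 8.27, 7.91 and 8.13 FPKM in control mice. Its log2 fold change was 0.28 (95% confidence interval 0.12 to 0.45; adjusted p = 0.166 from limma). It was 0.22 once the colon and heart scores entered as covariates and 0.20 with quantile normalization, with unadjusted p values of 0.269 and 0.11 in limma. Dusp10, another phosphatase of JNK and p38, was at 25.9 to 28.5 FPKM against 19.9 to 25.6 FPKM, also without overlap (log2 fold change 0.22, adjusted p = 0.342 from limma). Its unadjusted p in limma was 0.0888. With the colon score as covariate Dusp10 was at 0.37 and with both scores at 0.52, with unadjusted p values of 0.0149 and 0.0409 in limma. Dusp7 was at 10.9 to 15.5 FPKM over all libraries with overlapping groups. Dusp8 reached at most 1.35 FPKM and Dusp9 at most 0.0281 FPKM, and neither was tested. Of 11 atypical DUSPs, 8 were tested and 2 had an unadjusted p under 0.05, both lower: Dusp19 (log2 fold change -0.45) and Dusp11 (-0.23). By that rule 9.81% of all genes tested were lower. Dusp18, at 2.41 to 2.78 FPKM in treated and 1.65 to 2.17 FPKM in control mice, did not pass (log2 fold change 0.28, adjusted p = 0.384 from limma). With both scores as covariates Dusp19 was at -0.36 and Dusp11 at -0.22, with unadjusted p values of 0.201 and 0.218 in limma.

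Ier5, an immediate-early gene related to Ier2, had values of 43.7, 40.3 and 37.5 FPKM in the treated and 28.8, 31.2 and 30.5 FPKM in the control libraries. The groups did not overlap, and its log2 fold change of 0.41 (95% confidence interval 0.22 to 0.60; adjusted p = 0.137 from limma) was close to that of Dusp4. Ier5l was low and scattered, at 0.156 to 2.79 FPKM. Spry4 was the leading Sprouty gene in these cells, with 58.4, 41.8 and 43.8 FPKM in the treated and 55.9, 55.0 and 60.2 FPKM in the control libraries. Its log2 fold change was -0.26 (95% confidence interval -0.59 to 0.07; adjusted p = 0.358 from limma), and cytarabine 1 lay within the control range. Its difference was 0.02 within the libraries with little colon RNA and -0.38 within those with much. Spred2 was at 22.6 to 29.1 FPKM with overlapping groups, Spred3 at 0.60 to 0.711 against 0.46 to 0.584 FPKM and not tested, and Spry3 was listed at 0 in every library.

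Dusp6 and Spry4 are both used as readouts of ERK, and their ratio within a library does not depend on scaling. It was 2.28, 2.76 and 2.82 with cytarabine and 1.74, 1.74 and 1.65 in controls. The ratio of Dusp6 to Spred1 was 3.90, 4.35 and 4.12 against 3.08, 2.58 and 2.66. The Dusp6 message was thus higher relative to both Spry4 and Spred1 in each cytarabine library than in any control. These ratios were chosen after the values were seen and carry no test.

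For the cascade above the members, the counts stand beside 7.6% of all genes tested called higher and 9.81% called lower in limma. Of 27 tested genes of the Ras-ERK cascade, 2 were lower at an unadjusted p under 0.05 (Rasgrp1, the Ras activator of lymphocytes, at a log2 fold change of -0.38, and Map2k2, which encodes MEK2, at -0.20), and the median of the list was -0.034. Among 14 JNK and p38 kinase genes, Map3k5 was higher (0.22) and the p38 genes Mapk11 (-0.63) and Mapk14 (-0.30) were lower by that rule. None of these had an adjusted p under 0.151 in limma, and none had an unadjusted p under 0.05 once the colon and heart scores entered as covariates.

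Other genes induced through ERK differed in direction. Of 5 tested Egr and Nr4a genes, 3 were higher at an unadjusted p under 0.05, namely Egr1, Egr2 and Egr3, with log2 fold changes of 1.18, 1.29 and 1.34 (adjusted p values of 0.136, 0.137 and 0.166 from limma), and the groups of each did not overlap. Egr4 was listed at 0 in every library. Of 6 tested Fos and Jun genes, Jund (0.51) and Fosl2 (0.90) were higher by that rule, by which 7.6% of all genes tested were higher and 9.81% lower. The Fosl2 groups overlapped, with cytarabine 1 at 4.4 FPKM under control 1 at 4.61 FPKM. Fosb was lower without overlap, at 3.11 to 4.96 against 5.13 to 13.4 FPKM, and did not pass (log2 fold change -0.81, adjusted p = 0.293 from limma). Of 12 further genes driven by ERK, Plk3 was higher (0.65), and Etv4 (-0.29), Etv5 (-0.34) and Myc (-0.56) were lower. With the colon score as covariate, Fosl2 (0.37), Etv4 (-0.26), Etv5 (-0.15) and Myc (-0.32) no longer had an unadjusted p under 0.05. With colon and heart scores, Jund (0.32), Plk3 (0.50), Fosl2 (0.58), Etv4 (-0.31) and Etv5 (-0.035) did not, while Egr1, Egr2, Egr3 and Myc did. The fit with both scores leaves few degrees of freedom over 6 libraries. A call can be lost in it with little change in the estimate, as for Etv4. Under the replicate block Fosl2, Etv5 and Myc lost their calls. Zfp36, which encodes the AU-rich element binding protein tristetraprolin, was the 1 of 6 genes of AU-rich message decay that was higher (0.57), and Khsrp was the 1 that was lower (-0.37, and -0.14 with the colon score as covariate, at an unadjusted p of 0.208 in limma).

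**Figure D4:**
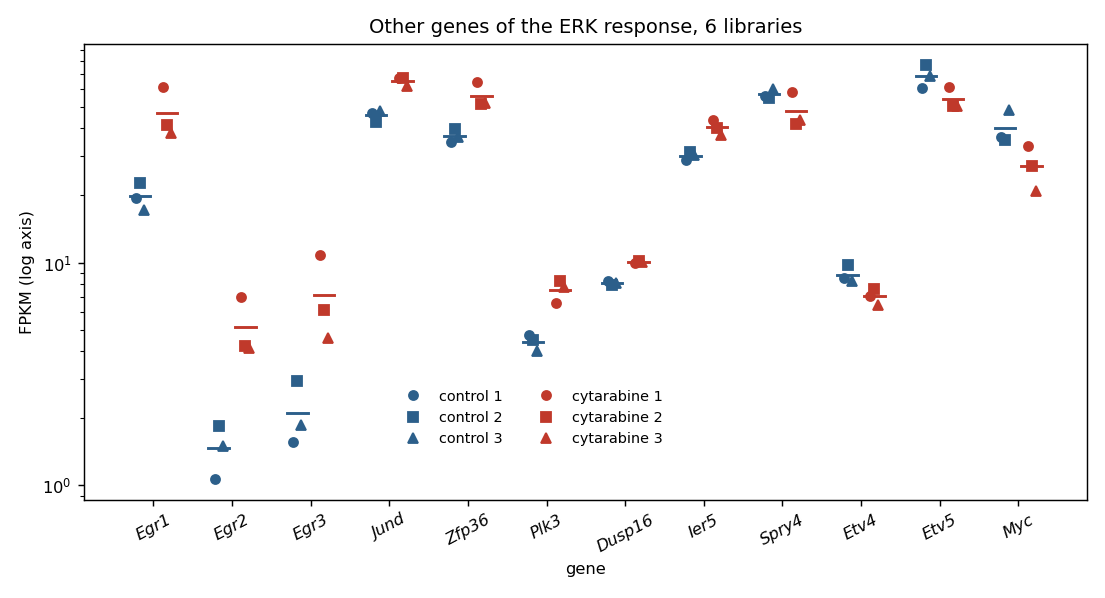
FPKM of 12 genes related to the members in each library, on a log axis. Points are libraries and bars are group means. The cytarabine points lie above all control points for Egr1, Egr2, Egr3, Jund, Zfp36, Plk3, Dusp16 and Ier5 and under them for Etv4 and Myc, while those of Spry4 and Etv5 overlap with the controls.

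The genes whose values over the 6 libraries were most like the mean standardised profile of the 9 tested members were Hnrnpa2b1 (Pearson r = 0.982), 1700052K11Rik (0.979), Lrrc16a (0.975), Dedd (0.975) and Paox (0.97). The profile itself was 0.25, 0.20 and 0.29 in cytarabine 1, 2 and 3 and -0.07, -0.12 and -0.55 in control 1, 2 and 3. With 6 points among 11703 genes, values this high are a description only, and 19 genes had an r of at least 0.95.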

How the data were processed

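RNA of 3 cytarabine and 3 control libraries was sequenced by the authors in 75-base single-end mode and mapped to mm10 with TopHat2 2.0.13, Bowtie2 2.2.3 and SAMtools 0.1.19. The deposited FPKM values per gene came from Cufflinks 2.2.1, and its annotation, strand setting and options are not given in the sources used here. After genes under a mean of 1 FPKM were dropped (11703 of 23284 stayed), log2(FPKM + 1) was compared with limma 3.58.1 in R 4.3.3, using the eBayes trend, two-sided tests and Benjamini-Hochberg adjustment over the genes kept. The pseudocount understates fold changes of low genes. The files used here hold no counts, so no count test was run. Groups and replicate numbers were taken from the labels. The members and gene lists were chosen with earlier results of these data known. Beside the members and their relatives, list genes were named at an unadjusted p under 0.05, at most 4 a direction. Egr4, Fosb, Dusp18, the NK genes and the markers of the line were added after their values were seen. So were single neutrophil, T cell, B cell and macrophage genes. Some genes of the cascade list, with any call in the higher direction, are not reported here. The 3' UTR counts were added after the data were seen. Positions and transcripts are from GENCODE M21 (GRCm38), and start-site windows from RefSeq. Depth was inferred assuming 200-base fragments. The 6 libraries were divided into the 3 with the higher and the 3 with the lower mean of colon epithelium genes. Alternatives were another pseudocount, other filters, 3 scalings, other eBayes settings, tissue scores as covariates, a replicate block and leaving out each library. The test was also tried on simulated data with independent noise and larger shifts than those of Dusp4 and Dusp6, so that trial does not bear on them. Figures were drawn with matplotlib 3.10.9.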

Additional observations from a re-analysis of the deposited data

How the results depend on the processing

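Dusp4 and Dusp6 kept an unadjusted p under 0.05 and their direction in each of the 17 alternative fits. The count of members higher by that rule was 2, or 3 with the colon score as covariate (Dusp2 added), with the replicate block or without cytarabine 1 (Dusp1 added) and without cytarabine 3 (Ier2 added). The count of members lower was 0. It was 3 with the colon score as covariate (Spry1, Spry2 and Ier3), 1 with quantile normalization (Ier3), and 0 to 1 when leaving out single libraries (Ier3 without control 3, Spred1 without cytarabine 1). The median log2 fold change of the members ranged from 0.12 to 0.31. Some small values changed sign. Spry2 was at -0.19 with colon and heart scores as covariates, -1.0 with the colon score alone and -0.25 with quantile normalization. Spred1 was at 0.11, Spred2 at 0.075 and Ier5l at 0.34 with both scores, and Spred2 at 0.038 with the colon score alone. Leaving out single libraries, values ran from -0.22 to 0.76 for Spry2, from -0.19 to 0.034 for Spry1, from -0.18 to 0.0015 for Dusp7 and from -0.81 to 0.026 for Ier5l. The cause was not tested.

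Genes with an adjusted p under 0.05 numbered 0 (2038 at an unadjusted p under 0.05). The robust eBayes trend gave 1, eBayes with no trend gave 2, a pseudocount of 0.1 gave 1, and leaving out single libraries gave 0 to 5, the 5 without cytarabine 1. The 2038 genes became 561 with colon and heart scores as covariates and 994 with the replicate block. Both of these fits leave few degrees of freedom over 6 libraries, which lowers their power. Leaving out single libraries gave 1179 (without control 3) to 4075 (without cytarabine 1), and 1252 to 1278 without control 2, cytarabine 2 or cytarabine 3. Same-numbered libraries come from different mice, so the main fit had no block. The deposited libraries carry partly other numbers in their names than in the labels. The pairs of the replicate block thus rest on the label numbers only. The deviations of same-numbered pairs from their group means correlated at -0.709, -0.247 and -0.594. Uneven tissue RNA between libraries enters these deviations, so they cannot show whether any libraries shared a batch. Under the block, the log2 fold change of each member is unchanged by construction, and Dusp4 and Dusp6 had unadjusted p values of 0.00942 and 0.0142 from limma. Depth limits Spry2, Dusp5 and Ier3, which had under 10 reads in at least 1 library.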

Other observations

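Of lists beside the ERK pathway, 2 of 4 tested heat shock genes were lower with cytarabine at an unadjusted p under 0.05 and none was higher. By that rule 9.81% of all genes tested were lower and 7.6% higher. Hspa8, the constitutive HSC70 chaperone, averaged 1850 FPKM in treated against 2500 FPKM in control mice (log2 fold change -0.44, adjusted p = 0.18 from limma), and Hsph1 had 135 against 243 FPKM (log2 fold change -0.87, adjusted p = 0.159 from limma). The groups of both did not overlap, and the other 2 tested members, Hsp90aa1 and Dnajb1, were at -0.23 and -0.22. Hspa1a and Hspa1b, which are induced by heat and by handling of cells, were not tested, with means of 0.401 against 0.198 FPKM and of 0.751 against 0.668 FPKM in treated and control mice. Hsph1 was at -0.37 within the libraries with little colon RNA and at -1.23 within those with much, and Hspa8 was at -0.24 with colon and heart scores as covariates, with an unadjusted p of 0.253 in limma.

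Of 14 tested p53 targets, Fas (log2 fold change 0.72) and Trp53inp1 (1.43) were higher and Sesn2 (-0.50) was lower at an unadjusted p under 0.05. By that rule 7.6% of all genes tested were higher and 9.81% lower. Trp53inp1 was at 0.71 with the colon score as covariate, with an unadjusted p of 0.0797 in limma. Cdkn1a, the p21 gene, gave 1.07, 16.5 and 16.7 FPKM in the cytarabine libraries, against 7.07, 2.46 and 0.457 FPKM in the control libraries, so that the 3 libraries with much colon RNA were the highest. The part of that RNA in its level was not tested. Cdkn1a, Zbtb16, Hspa1a, Hspa1b and the heat shock genes without a call were chosen after their values were seen. Of 6 tested glucocorticoid targets, a pathway that also acts on Dusp1, none had an unadjusted p under 0.05 in limma. All 6 estimates were positive, at a median log2 fold change of 0.076. Zbtb16, also on that list and not tested, was higher without overlap, at 0.48 to 0.59 against 0.0881 to 0.242 FPKM. Of all genes tested, 10.9% were higher without overlap.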
